A study of Cricetulus griseus with 10 samples.

Results

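Gene expression at passage 2 of an adaptation to suspension growth was compared with that at passage 0 in CHO-K1, an established line derived from Chinese hamster ovary that normally grows attached to plastic. The comparison used 4 of the 10 RNA sequencing libraries of the series, chosen by their labels: replicates 1 and 2 of passage 0 (P0) and replicates 1 and 2 of passage 2 (P2). The other 6 libraries, 2 each from passages 4, 6 and 10, entered the statistical model to estimate the spread and are otherwise given as values only. The labels gave every library the same line, a wild-type genotype and SFM4CHO, a serum-free medium, and they named no drug treatment or transgene. Beyond that medium, how the P0 cells were grown, attached or not, was not stated, so P0 is described here by its passage number alone. Whether the duplicates were separate cultures was not stated either, and the p-values therefore measure the spread between these libraries, which may be technical. Passage number and days in culture cannot be told apart in this design, and in bulk RNA fewer cells of a type and less RNA per cell cannot be told apart.

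Attached cells are held by integrins, whose focal adhesions pass signals to the actin cytoskeleton, and they read growth factors and lipids from serum. Serum carries lipoprotein cholesterol, and when cell sterols are low the SREBP pathway is known to turn on the enzymes of the mevalonate route and lipoprotein uptake. Serum and growth factors are also known to induce the immediate early genes, a set of transcription factors such as Fos and Nr4a1 that respond within a short time and without new protein synthesis. The labels named the same serum-free medium for P0 and P2, and an effect of serum was not tested. CHO-K1 is the parent of many lines used to make therapeutic proteins, for which growth in suspension is the usual format.

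The table held 25156 features, of which 13521 had a mean of at least 10 normalised reads over the 10 libraries and were tested. Normalised reads are read counts divided by a size factor of the library, and log2 changes are differences of mean log2(normalised reads + 1), which understate the change of genes with few reads. The P0 libraries held 12818981 and 8495567 reads and the P2 libraries 11157386 and 11124524. At an adjusted p of 0.05, 281 features rose (2.08% of those tested) and 280 fell (2.07%), together 4.15%, and 2513 passed an unadjusted p of 0.05. In this text, "rose" and "fell" refer to features past that adjusted threshold. Of the rises, 231 were at least 2-fold and 93 at least 4-fold, against 215 and 30 of the falls. The median log2 change was 1.54 among the rises and -1.21 among the falls, and 0.01 over all features tested. The values of the P0 and P2 libraries did not overlap for 67.1% of all tested features, so a lack of overlap alone is not a mark of any gene named here. When the spread came from the 4 P0 and P2 libraries alone, 13.7% of the features rose and 15.4% fell, together 29.1%, so the number of calls rests on which libraries set the spread. That fit is called the 4-library fit. With 1 library left out at a time, 61 features passed without P2 replicate 2, 80 without P2 replicate 1, 88 and 102 without P0 replicates 1 and 2, and 207 and 208 without the P4 libraries. The count was 688 and 689 without P6 replicates 1 and 2, and 1578 and 1575 without P10 replicates 1 and 2. These are the 10 leave-one-out fits, in each of which 59 of the 561 called features passed, 48 of them rises. A gene said below to have lost the call in at least 1 of these fits passed in 4 to 9 of the 10. Each such gene lost it on removal of a P0 or P2 library. Folds are ratios of the mean normalised reads. For each gene list, the brackets after its count give first the rises and then the falls, in the 4-library fit and as a range over the leave-one-out fits. The shares over all features to set beside a list's count are 2.08% for rises and 2.07% for falls, or 13.7% and 15.4% in the 4-library fit. Beside a leave-one-out range belong the totals given above for those fits, out of 13521 features. Whichever P0 or P2 library was removed, no gene was called in the lists for NRF2, amino acid response, fatty acid synthesis, sterol sensing, TGF-beta, integrins, YAP and SRF targets or p53. The same held for sterol synthesis, glycolysis, hypoxia, aminoacyl-tRNA synthetases, endoplasmic reticulum stress, lysosome and N-glycosylation. It also held for DNA replication, the circadian clock, retinoid and vitamin D genes, and aquaporins and cell volume. Those fits left 1 library at P0 or at P2 and called few of the 13521 features in all. Lists of this size would then hold few calls or none, so their absence is no result about these lists.

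**Figure D1:**
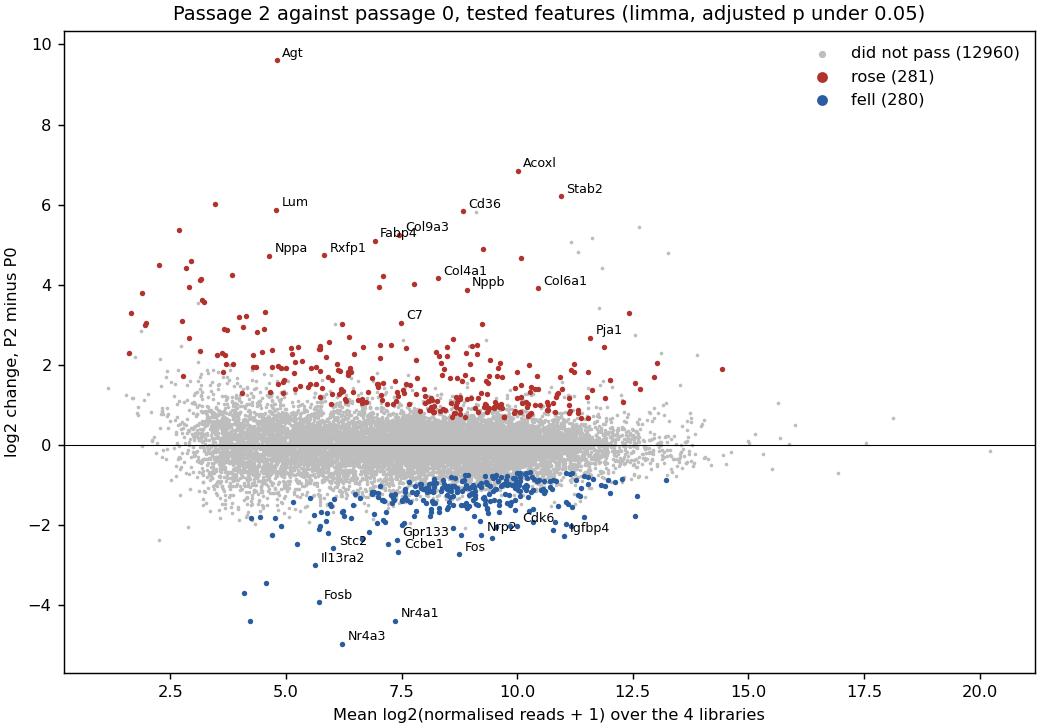
Log2 change from P0 to P2 (vertical axis) against the mean of log2(normalised reads + 1) over the 4 libraries (horizontal axis) for the 13521 tested features, with features that rose or fell at an adjusted p of 0.05 in colour. The 281 rises reach higher values than the 280 falls, with 93 rises and 30 falls of at least 4-fold.

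P2 replicate 2 held far more ribosomal RNA than the other libraries, and this is stated before the results that rest on it. The 4 ribosomal RNA features took 2.71% of its reads (95% exact binomial interval 2.70 to 2.72%, counting error alone), against 0.112% in P2 replicate 1, 0.0180% and 0.0224% at P0, and 0.00692 to 0.144% in the 6 later libraries. Rna28s1, the 28S ribosomal RNA, was at 1601 and 2140.0 at P0, 11001 in P2 replicate 1 and 239094 in P2 replicate 2 (adjusted p = 0.0551). Rn5-8s, the 5.8S ribosomal RNA, was at 336 and 467 at P0, 1914 in P2 replicate 1 and 91613 in P2 replicate 2 (adjusted p = 0.115). Each was also higher in P2 replicate 1 than in either P0 library, and neither passed the test. In all, 13 features were more than 4-fold higher in P2 replicate 2 than in P2 replicate 1, and none was as much lower. They included Abca4, named for a retinal lipid transporter, at 6962 and 6881 at P0, 8277 in P2 replicate 1 and 130376 in P2 replicate 2, and Dlgap1, named for a postsynaptic scaffold, at 184 and 239 at P0, 132 in P2 replicate 1 and 10132 in P2 replicate 2. None of the 13 was among the calls. In each refit below that left out the ribosomal RNA features, all libraries were also scaled to equal totals. Those refits therefore changed the scaling of every library. Without P2 replicate 2, the log2 changes of the 150 genes named by the rule moved by at most 0.453. All 561 called features kept their direction without that library. They had been called with it included, so their kept direction is no separate support. Over all tested features, with the 13 included, the Pearson correlation of log2 values between duplicates was 0.988 at P0 and 0.989 at P2.

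**Figure D2:**
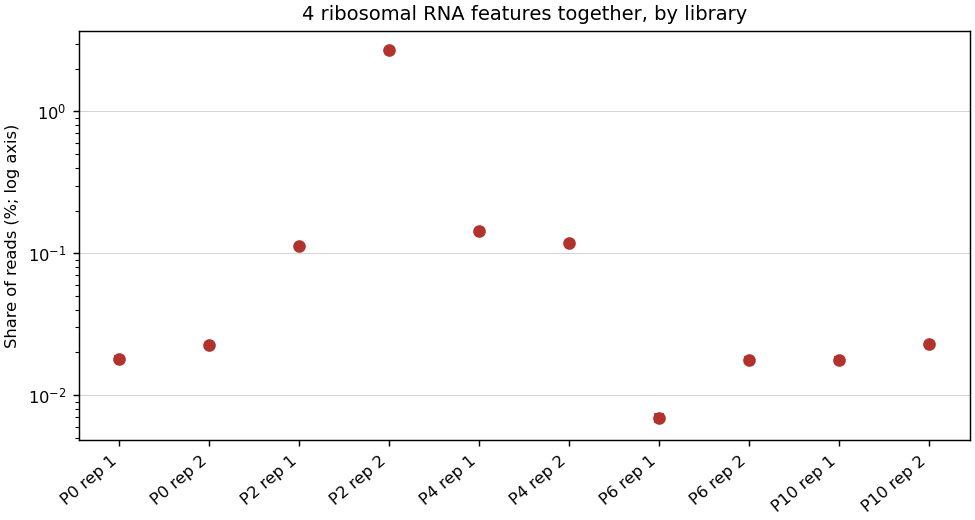
Share of reads in the 4 ribosomal RNA features in each of the 10 libraries (log axis, percent). P2 replicate 2 stands highest at 2.71%, and P2 replicate 1 and the P4 libraries lie between 0.112 and 0.144%, above the P0, P6 and P10 libraries.

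Secreted peptides of blood pressure and fluid control were among the 20 largest rises. Agt, angiotensinogen, the precursor of the angiotensin peptides, was at 0 reads in both P0 libraries and at 818 and 734 normalised reads in the P2 libraries. With 3 reads per library as the floor for P0, Agt was at least 224-fold higher (adjusted p = 1.07e-05). Nppb, the precursor of the B-type natriuretic peptide, rose from 126 and 122 normalised reads at P0 to 1905 and 1770.2 at P2 (log2 change 3.88, SE 0.46, adjusted p = 0.00358). Nppa, the precursor of the atrial natriuretic peptide, rose from 8.71 and 1.44 to 131 and 123 (log2 change 4.72, SE 0.62, adjusted p = 0.00587). Rxfp1, the receptor of the hormone relaxin, rose from 8.71 and 11.5 to 305 and 279 (log2 change 4.73, SE 0.28, adjusted p = 0.000107). In all 4 genes each P2 library lay above both P0 libraries, as the naming rule required. Of the 13 genes tested in the list of vasoactive and hormone peptides and their receptors, these 4 rose (2.08% of all features rose), none fell (4-library fit 5 and 1, leave-one-out fits 3 to 4 and 0), and the list median was 0.30 on the log2 scale. Of these, Agt, Rxfp1 and Nppb passed in each leave-one-out fit, and Nppa lost the call in at least 1 (highest adjusted p 0.0658).

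Lipid uptake contributed a pair of large rises. Cd36, a scavenger receptor that takes up long-chain fatty acids and oxidised lipoproteins, rose from 48.8 and 71.9 normalised reads at P0 to 3659 and 3245 at P2, or 57.2-fold (log2 change 5.84, SE 0.25, adjusted p = 1.15e-05). Fabp4, a cytosolic carrier of fatty acids best known from adipocytes, rose from 19.2 and 20.1 to 771 and 644, or 36.00-fold (log2 change 5.1, SE 0.22, adjusted p = 1.15e-05). The P2 duplicates of both genes lay close together, far above the P0 libraries. No other of the 25 tested genes of fatty acid uptake and lipid droplets passed (4-library fit 7 and 5, leave-one-out fits 2 to 4 and 0 to 2), and the list median was -0.05. In the refits, Cd36 and Fabp4 passed in each leave-one-out fit.

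Several structural proteins of the extracellular matrix were also among the largest rises. Lum, lumican, a small proteoglycan that binds collagen fibrils, rose from 4.36 and 1.44 normalised reads at P0 to 227 and 196 at P2 (log2 change 5.87, SE 0.55, adjusted p = 0.00103). Col9a3, a chain of the fibril-associated collagen IX of cartilage, rose from 22.6 and 33.1 to 1098 and 1061 (log2 change 5.25, SE 0.50, adjusted p = 0.00108). Col4a1, a chain of the basement membrane collagen IV, rose from 80.1 and 66.1 to 1369 and 1267 (log2 change 4.16, SE 0.18, adjusted p = 1.15e-05). The collagen VI chains Col6a1 and Col6a2, which form beaded filaments around cells, rose from 419.9 and 305 to 4575 and 6358 and from 54.9 and 50.3 to 830.02 and 921 (15.1-fold and 16.6-fold, adjusted p = 0.000228 and 0.000674). P2 exceeded P0 in every library pair for these 5 genes, as the naming rule required. For the matrix genes, Lum, Col9a3, Col4a1, Col6a1 and Col6a2 passed in each leave-one-out fit.

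The remaining large rises had no common role. C7, a component of the complement membrane attack complex, rose from 60.98 and 61.8 normalised reads at P0 to 482 and 554 at P2 (log2 change 3.05, SE 0.19, adjusted p = 0.000124). Pde1b, a calmodulin-dependent phosphodiesterase that breaks down cyclic nucleotides, rose from 24.4 and 25.9 to 212 and 211 (log2 change 3.03). Pja1, a RING-type ubiquitin ligase, rose from 1159 and 1247 to 7742 and 7707 (log2 change 2.68). Foxs1, a forkhead transcription factor, rose from 47.04 and 21.6 to 501 and 503 (log2 change 3.93, SE 0.53, adjusted p = 0.00619). Nrg4, a ligand of the receptor ErbB4, rose from 37.5 and 25.9 to 231 and 187 (log2 change 2.7, SE 0.37, adjusted p = 0.00643). Acoxl, which resembles the peroxisomal acyl-CoA oxidases, went from 126 and 71.9 to 12901 and 9513, and Stab2, a scavenger receptor for hyaluronan, went from 294 and 177 to 18284 and 15666. Phactr1, a regulator of protein phosphatase 1 and actin, went from 233 and 199.8 to 6978 and 4329, and Inpp5b, an inositol polyphosphate 5-phosphatase, from 1905 and 1619.7 to 20424 and 14497. These last 4 reached high levels in both P2 libraries but passed by a smaller margin (adjusted p = 0.0402, 0.0438, 0.0387 and 0.00826). Their later libraries lay far apart, as for Stab2 with 137 and 6829 normalised reads at P6. In edgeR's quasi-likelihood test on recovered reads Acoxl and Stab2 missed the threshold (adjusted p = 0.0506 and 0.0535), as did Stab2 with the ribosomal RNA features left out (adjusted p = 0.0523). With single libraries left out, C7, Pde1b and Pja1 passed in each leave-one-out fit, and Foxs1, Nrg4, Acoxl, Stab2, Phactr1 and Inpp5b lost the call in at least 1 (highest adjusted p 0.0707 to 0.258).

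**Figure D3:**
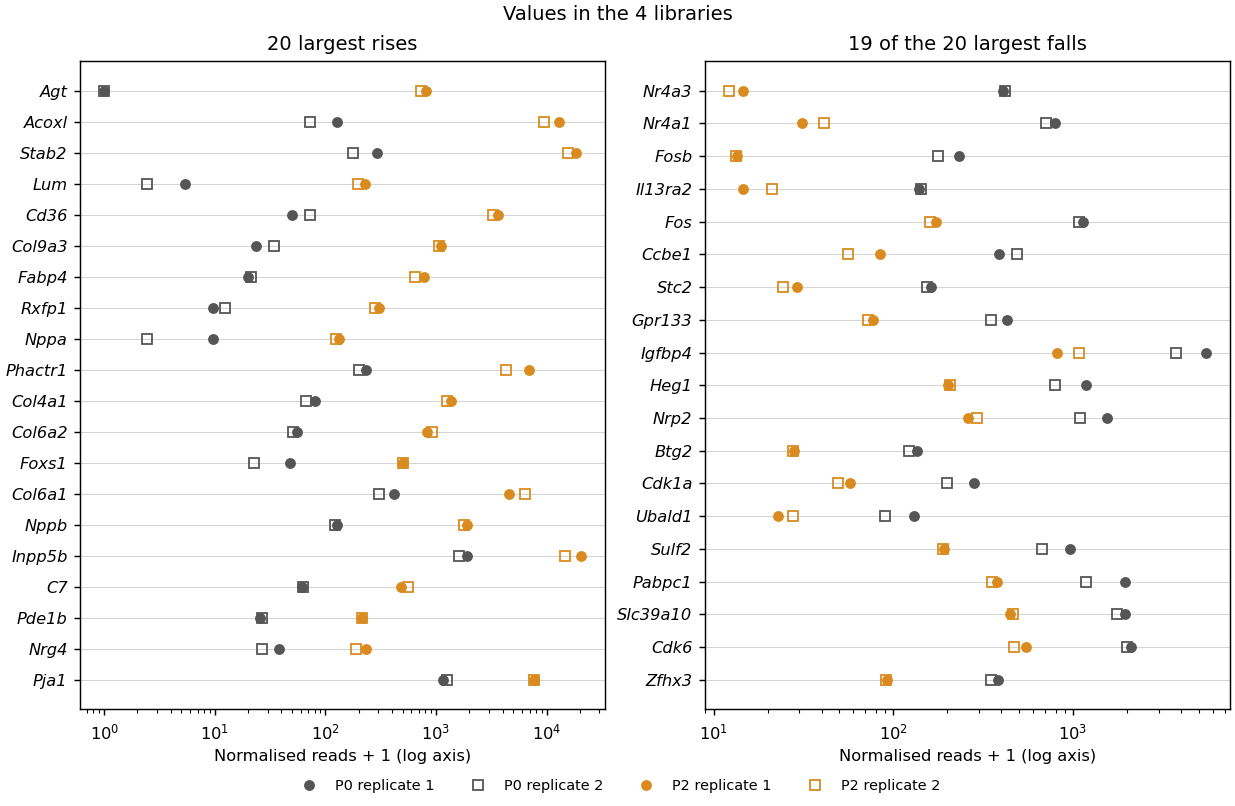
Normalised reads + 1 (log axis) in each of the 4 libraries for the 20 largest rises (left) and 19 of the 20 largest falls (right) that met the naming rule, with grey symbols for P0 and orange for P2. The P0 and P2 symbols do not overlap for any gene, which the naming rule required. Agt sits at 0 reads in both P0 libraries.

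Immediate early transcription factors made up the top of the falls. Nr4a3 and Nr4a1, orphan nuclear receptors, fell from 405 and 417 normalised reads at P0 to 13.5 and 11.2 at P2 and from 792 and 703 to 30.2 and 40.2, or 33.3-fold and 21.2-fold lower (adjusted p = 0.00108 and 0.000491). Fosb and Fos, which pair with Jun proteins in the AP-1 factor, fell from 233 and 175 to 12.5 and 12.3 (log2 change -3.92, SE 0.56, adjusted p = 0.00773) and from 1129.8 and 1082 to 173 and 159.8 (log2 change -2.73, SE 0.39, adjusted p = 0.00756). Egr2, a zinc finger factor, fell from 171 and 103 to 40.6 and 42.5 (log2 change -1.66, SE 0.32, adjusted p = 0.0255). Btg2, an antiproliferative gene of the same early class, fell from 134 and 121 to 27.1 and 26.8 (log2 change -2.2, SE 0.30, adjusted p = 0.00621). In each of these 6 genes both P2 libraries lay below both P0 libraries, while 67.1% of all tested features had no overlap in either direction. Of 21 list members tested, 6 fell (2.07% of all features fell), none rose (4-library fit 0 and 14, leave-one-out fits 0 and 2 to 11), and the median log2 change was -1.27. Among the members that did not pass, those with the most reads were Fosl2 (-0.85, adjusted p = 0.0812), Klf6 (-0.45, adjusted p = 0.503) and Ier3 (0.25, adjusted p = 0.661). Egr1, named here with its values known, was at 564 and 285 at P0 and 90.6 and 117 at P2 (-1.95, adjusted p = 0.0637). In the refits without single libraries, Nr4a1 and Nr4a3 passed in each leave-one-out fit, and Btg2, Fos, Fosb and Egr2 lost the call in at least 1 (highest adjusted p 0.0814 to 0.235).

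Sprouty, Spred and Dusp genes, which dampen MAP kinase signals, gave 3 rises and 1 fall. Spry2, Spry1 and Spry4, Sprouty proteins that restrain receptor signals to ERK, rose from 282 and 223 normalised reads at P0 to 1002 and 1030.4 at P2, from 12.2 and 14.4 to 49.99 and 60.3 and from 7.84 and 1.44 to 28.1 and 40.2 (adjusted p = 0.000999, 0.0126 and 0.0311). Dusp10, a phosphatase that acts mainly on p38 and JNK, fell from 765 and 924 to 286 and 299.5 (log2 change -1.52, SE 0.21, adjusted p = 0.00629). Spry4 started from 1.44 and 7.84 normalised reads, so its change rests on few reads. These were the calls of 18 genes tested (4-library fit 4 and 4, leave-one-out fits 1 to 3 and 0 to 2), with a median of -0.07. Of the 4, Spry2 passed in each leave-one-out fit, and Spry1, Spry4 and Dusp10 lost the call in at least 1 (highest adjusted p 0.0834 to 0.252).

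Growth factors and their receptors included rises and falls. Figf, the lymphatic growth factor VEGF-D, rose from 159 and 169.6 normalised reads at P0 to 799.8 and 739.8 at P2 (log2 change 2.22, SE 0.25, adjusted p = 0.00245). Hgf, hepatocyte growth factor, and Fgf7, keratinocyte growth factor, rose from 508 and 530.3 to 1086 and 934 and from 203 and 264 to 843 and 643 (log2 changes 0.96 and 1.66). Ereg, epiregulin, a ligand of the EGF receptor, rose from 259.6 and 214 to 1439 and 1221 (log2 change 2.49, SE 0.39, adjusted p = 0.0116). Fgf2, basic fibroblast growth factor, fell from 1680.3 and 1137 to 444 and 427 (log2 change -1.66, SE 0.24, adjusted p = 0.00773), and Vegfc, another lymphatic factor, fell from 534 and 599 to 296 and 264 (log2 change -1.02). Ddr2, a receptor tyrosine kinase for fibrillar collagen, fell from 4189.9 and 3982 to 1646 and 1723 (log2 change -1.28, SE 0.15, adjusted p = 0.00343). Nrp2, a co-receptor for semaphorins and VEGF-C, fell from 1546 and 1087 to 258 and 292 (log2 change -2.24, SE 0.23, adjusted p = 0.00158). Of 32 receptor tyrosine kinases and ligands tested, 3 rose and 3 fell (4-library fit 7 and 14, leave-one-out fits 1 to 5 and 0 to 8), with a median of -0.35. Of 12 genes of the EGF family, Nrg4 and Ereg rose, none fell (4-library fit 4 and 0, leave-one-out fits 0 to 4 and 0), and the median was 0.26. Over the refits, Figf and Nrp2 passed in each leave-one-out fit, and Hgf, Fgf7, Ereg, Fgf2, Vegfc and Ddr2 lost the call in at least 1 (highest adjusted p 0.0657 to 0.3). With the ribosomal RNA features left out and all libraries scaled to equal totals, Hgf, Fgf7 and Vegfc missed the threshold (adjusted p = 0.0786, 0.0595 and 0.0952).

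Genes of the insulin and IGF axis that passed the test fell. The receptor Igf1r fell from 2025 and 2479 normalised reads at P0 to 802 and 691 at P2 (log2 change -1.59, SE 0.22, adjusted p = 0.00629), and Irs1, the adaptor that couples insulin and IGF receptors to PI3 kinase, fell from 617 and 605 to 319.7 and 253 (log2 change -1.1, SE 0.21, adjusted p = 0.0253). Igfbp4, a secreted protein that binds IGFs, fell from 5475 and 3753 to 818 and 1084 (log2 change -2.27, SE 0.33, adjusted p = 0.00855). Stc2, a secreted inhibitor of the protease that cleaves Igfbp4, fell from 162 and 154 to 28.1 and 23.5 (log2 change -2.57, SE 0.45, adjusted p = 0.0193). Foxo1, a transcription factor that insulin signalling keeps out of the nucleus, fell from 324 and 213 to 65.6 and 77.1 (log2 change -1.87, SE 0.31, adjusted p = 0.0157). The P2 values of these 5 genes all lay below those at P0, while 67.1% of all tested features had no overlap in either direction. The count was 5 falls and no rise among 14 genes tested (4-library fit 1 and 8, leave-one-out fits 0 and 0 to 6), with a median of -0.66. As to single libraries, Igf1r, Irs1, Igfbp4, Stc2 and Foxo1 lost the call in at least 1 leave-one-out fit (highest adjusted p 0.0882 to 0.254). Irs1 also missed the threshold with the ribosomal RNA features left out (adjusted p = 0.0591).

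Enzymes of sterol synthesis were among the rises. Of 19 tested, 6 rose (2.08% of all features did), none fell, 17 had a positive log2 change and the median was 1.14, against 0.01 over all features. The count was 16 rises in the 4-library fit, at most 13 in the leave-one-out fits and 0 whenever a P0 or P2 library was the one removed, with no fall in any of these. At the start of the route, Hmgcs1, which makes HMG-CoA, rose from 1234 and 1309 normalised reads at P0 to 4498 and 4433 at P2 (log2 change 1.81, SE 0.25, adjusted p = 0.00635). Idi1, which isomerises the isoprenoid building block, rose from 1026 and 1128 to 3819 and 3222 (log2 change 1.7, SE 0.22, adjusted p = 0.0054). Fdft1, squalene synthase, which commits the route to sterols, rose from 799.6 and 808 to 1429 and 1423 (log2 change 0.83, SE 0.15, adjusted p = 0.0235). Lss, which closes squalene epoxide to lanosterol, rose from 813 and 746 to 1931 and 1981 (log2 change 1.33, SE 0.28, adjusted p = 0.0382). Msmo1 and Sc5d, which act on later sterol intermediates, rose from 1183 and 1223 to 3012 and 2874 and from 1218 and 1190.0 to 2942 and 2597 (2.45-fold and 2.3-fold, adjusted p = 0.00442 and 0.00756). These 6 changes lay between 0.83 and 1.81 on the log2 scale, a narrow span beside that of the matrix genes. Among members that did not pass was Fdps, which makes farnesyl diphosphate (1.24, adjusted p = 0.117). Ggps1, which leads away from sterols to geranylgeranyl groups (-0.06, adjusted p = 0.929), and Hsd17b7 (-0.24, adjusted p = 0.54) were the negative members, named with their values known. As for the 6 enzymes, Hmgcs1, Idi1, Fdft1, Lss, Msmo1 and Sc5d lost the call in at least 1 leave-one-out fit (highest adjusted p 0.0762 to 0.252). With the ribosomal RNA features left out, Fdft1 missed the threshold (adjusted p = 0.0672).

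Among genes that sense and move sterols, fewer passed. Insig1, which holds the SREBP complex in the endoplasmic reticulum, rose from 686 and 678 normalised reads at P0 to 1563 and 1511 at P2 (log2 change 1.17, SE 0.16, adjusted p = 0.00593). Stard4, a cytosolic sterol carrier, rose from 197 and 204 to 392 and 382 (log2 change 0.95, SE 0.18, adjusted p = 0.0276), and Lrp8, a lipoprotein receptor, from 766 and 713 to 1302 and 1380.2 (log2 change 0.86, SE 0.18, adjusted p = 0.0371). These were the 3 rises of 18 genes tested, with no fall (4-library fit 5 and 6, leave-one-out fits 0 to 5 and 0 to 4) and a median of 0.04. Nr1h3, the oxysterol-sensing nuclear receptor LXR-alpha, rose from 598 and 615 to 2432 and 2432 (log2 change 2.0, SE 0.17, adjusted p = 0.000827), with duplicates that lay close together. Abcg1, a sterol exporter, rose from low levels, from 8.71 and 7.19 to 49.99 and 34.6 (log2 change 2.26, SE 0.36, adjusted p = 0.0131), while Abca1, another sterol exporter, did not pass (0.18, adjusted p = 0.751). Of 9 genes of sterol efflux and LXR targets, those 2 rose and none fell (4-library fit 4 and 1, leave-one-out fits 1 to 3 and 0). Among these sterol genes, Nr1h3 passed in each leave-one-out fit, and Insig1, Stard4, Lrp8 and Abcg1 lost the call in at least 1 (highest adjusted p 0.0861 to 0.284). Lrp8 missed the threshold with the ribosomal RNA features left out (adjusted p = 0.122).

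Fatty acid synthesis gave a pair of calls. Of 22 genes tested, Fads3, a member of the fatty acid desaturase family, rose from 268 and 273 to 597 and 641 (log2 change 1.19, SE 0.27, adjusted p = 0.0466) and Elovl7, an elongase, fell from 152 and 122 to 57.3 and 59.2 (log2 change -1.21, SE 0.28, adjusted p = 0.0485). The list median was -0.08 (4-library fit 9 and 3, leave-one-out fits 0 to 5 and 0 to 2). The members Acly, which makes cytosolic acetyl-CoA (0.11, adjusted p = 0.925), Fasn, fatty acid synthase (-0.26, adjusted p = 0.791), and Acsl5, which activates fatty acids (0.38, adjusted p = 0.333), did not pass. For both, Fads3 and Elovl7 lost the call in at least 1 leave-one-out fit (highest adjusted p 0.298 to 0.365). Elovl7 also missed the threshold with the ribosomal RNA features left out (adjusted p = 0.0993).

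**Figure D4:**
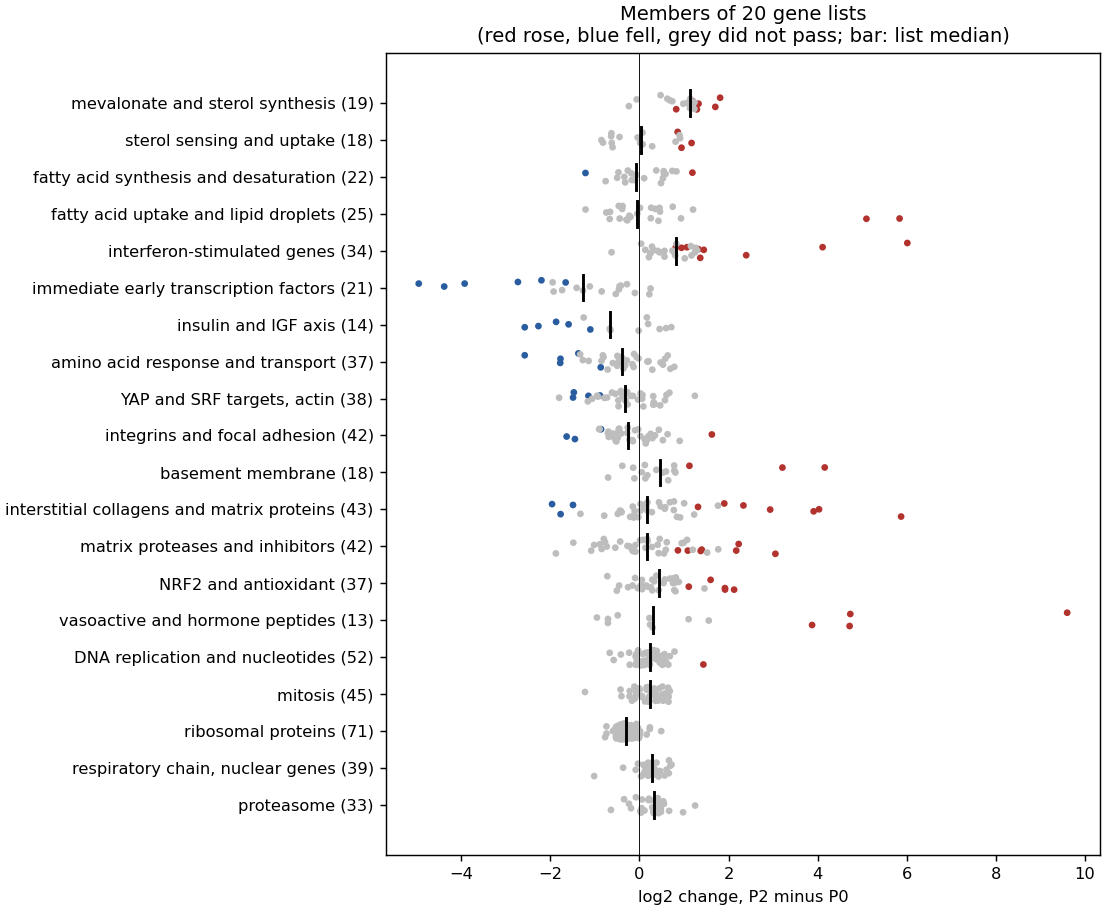
Log2 change from P0 to P2 of each tested member of 20 gene lists (points; red rose, blue fell, grey did not pass) with the median of each list as a black bar and the number of tested members in brackets. The medians of sterol synthesis (1.14) and interferon-stimulated genes (0.82) lie furthest to the right and that of the immediate early factors (-1.27) furthest to the left. The lists of vasoactive peptides, fatty acid uptake and interstitial collagens hold single members far from their medians.

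Interferon-stimulated genes gave rises and no fall. Of 34 tested, 10 rose (2.08% of all features did), none fell and 33 had a positive log2 change, with a median of 0.82 (4-library fit 25 and 1, leave-one-out fits 2 to 16 and 0). Isg15, a ubiquitin-like modifier, had 1 read in the P0 libraries together and 163 in the P2 libraries, which is 162-fold after scaling (95% counting interval 28.7 to 6438). Ifi44l had 2 and 68 reads, 33.8-fold (9.0 to 285). Both passed (adjusted p = 0.000207 and 0.000999). Oasl2, of the oligoadenylate synthetase family, rose from 28.7 and 17.2 normalised reads at P0 to 125 and 118 at P2 (log2 change 2.4, SE 0.29, adjusted p = 0.00403). Uba7, the enzyme that activates Isg15, rose from 72.3 and 79.05 to 196 and 220.2 (log2 change 1.45, SE 0.24, adjusted p = 0.0149). B2m, the light chain of MHC class I, rose from 3436 and 3454 to 7824 and 6662 (log2 change 1.07, SE 0.18, adjusted p = 0.0163), and the transcription factor Irf1 rose from 116 and 114 to 277 and 319 (log2 change 1.37, SE 0.25, adjusted p = 0.0231). Isg15 and Ifi44l were thus near absent at P0, while B2m and Irf1 rose from an established level. Bst2, the surface protein tetherin, did not pass (0.13, adjusted p = 0.897). Of the genes with values here, Isg15 and Ifi44l passed in each leave-one-out fit, and Oasl2, Uba7, B2m and Irf1 lost the call in at least 1 (highest adjusted p 0.063 to 0.221).

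Other genes of immunity were mixed. Il33, an alarmin cytokine, rose from 49.7 and 35.9 normalised reads at P0 to 263 and 211 at P2 (log2 change 2.45, SE 0.24, adjusted p = 0.00131), and Tnfaip2, a TNF-induced gene, rose from 219 and 142 to 636 and 679 (log2 change 1.89, SE 0.30, adjusted p = 0.0117). Cxcl1, a neutrophil chemokine, fell from 739 and 811 to 278 and 273 (log2 change -1.49, SE 0.26, adjusted p = 0.0197), and the cytokine Il15 fell from 287 and 346 to 131 and 112 (log2 change -1.37, SE 0.25, adjusted p = 0.0221). Il13ra2, a decoy receptor of interleukin 13, was among the 20 largest falls, from 138 and 141 to 13.5 and 20.1 (log2 change -3.0, SE 0.33, adjusted p = 0.00226). Birc3, an inhibitor of apoptosis and NF-kB target, rose by 0.83 on the log2 scale. The list of chemokines, cytokines and NF-kB counted 3 rises and 2 falls among 30 tested (4-library fit 7 and 5, leave-one-out fits 1 to 5 and 0 to 4), with a median of -0.06. Of 19 genes of complement and coagulation, C7 and C3 rose and F2r, the thrombin receptor, and Thbd, thrombomodulin, fell (4-library fit 4 and 3, leave-one-out fits 1 to 2 and 0 to 2). C3, the central complement component, rose from 17.4 and 12.9 to 42.7 and 35.8, F2r fell from 4443 and 3475 to 1666 and 1659.6, and Thbd fell from 6118 and 4389 to 1387 and 1618 (log2 changes 1.32, -1.24 and -1.79). Among the immune genes, Il33 and Il13ra2 passed in each leave-one-out fit, and Tnfaip2, Birc3, Cxcl1, Il15, C3, F2r and Thbd lost the call in at least 1 (highest adjusted p 0.125 to 0.33). With the ribosomal RNA features left out, Birc3, C3 and F2r missed the threshold (adjusted p = 0.0652, 0.0704 and 0.0565).

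Beyond the large collagen changes, the matrix lists held further rises and falls. Col3a1, a fibrillar collagen, rose from 11822 and 11119.6 normalised reads at P0 to 43931 and 41963 at P2 (log2 change 1.9, SE 0.29, adjusted p = 0.00944). Col1a1, the main chain of collagen I, rose from near the floor, from 3.48 and 7.19 to 37.5 and 54.8 (log2 change 2.93, SE 0.46, adjusted p = 0.0109). Col1a1 met the minimum mean of 10 over the 10 libraries only with its P2 values counted. Postn, periostin, rose from 129 and 139 to 739 and 626 (log2 change 2.33, SE 0.22, adjusted p = 0.00101), and Thbs1, thrombospondin 1, fell from 12125 and 10022 to 3043 and 3439.8 (log2 change -1.77, SE 0.19, adjusted p = 0.00224). Efemp1, a fibulin, fell from 4275 and 4080.2 to 1129 and 1019 (log2 change -1.96, SE 0.17, adjusted p = 0.000903). Not all called collagens rose: Col8a1, named with its values known, fell from 812 and 532 to 251 and 217 (log2 change -1.49, SE 0.28, adjusted p = 0.024). Fn1, fibronectin, named as a mesenchymal marker, was at 7604 and 5351 at P0 and 4712 and 4852 at P2 and did not pass (-0.42, adjusted p = 0.332). Of 43 interstitial matrix genes, 7 rose and 3 fell, with a median of 0.17 (4-library fit 15 and 7, leave-one-out fits 4 to 11 and 2 to 3). In the basement membrane list, 3 of 18 tested genes rose, Col4a1 and Col4a2 among them, and none fell (4-library fit 8 and 2, leave-one-out fits 2 to 5 and 0), with a median of 0.46. Col4a2, the partner chain of Col4a1, rose from 5.23 and 4.31 to 54.2 and 50.3 (log2 change 3.21, SE 0.32, adjusted p = 0.00131). Leaving out libraries in turn, Postn, Thbs1, Efemp1 and Col4a2 passed in each leave-one-out fit, and Col3a1 and Col1a1 lost the call in at least 1 (highest adjusted p 0.115 to 0.146).

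Proteases and inhibitors that act on the matrix gave rises. There were 7 rises and no fall among 42 tested, with a median of 0.18 (4-library fit 14 and 10, leave-one-out fits 0 to 11 and 0 to 3). Adamts4, an aggrecanase, rose from 74.04 and 50.3 normalised reads at P0 to 263 and 295 at P2 (log2 change 2.17, SE 0.25, adjusted p = 0.00259). Mmp12, macrophage elastase, and Mmp19 rose from 133 and 158 to 731 and 639 and from 1236 and 1233 to 3351 and 3167 (log2 changes 2.23 and 1.4). Timp1, a tissue inhibitor of metalloproteinases, and Serpinf1, pigment epithelium-derived factor, rose from 1100.2 and 1105 to 2313 and 2373 and from 1892 and 1983 to 5061 and 4993 (log2 changes 1.09 and 1.38). Adamtsl2, a secreted protein of the ADAMTS-like family, had a single read at P0 against 20 reads at P2, 19.9-fold after scaling (3.18 to 824). Both proteases and the inhibitor Timp1 were thus among the rises. Sulf2, which trims sulfate groups from heparan sulfate outside the cell, fell from 964 and 668 to 192 and 188 (log2 change -2.08, SE 0.23, adjusted p = 0.00226), the sole call among 14 syndecans, glypicans and sulfatases (4-library fit 2 and 7, leave-one-out fits 0 to 1 and 1 to 4), whose median was -0.42. Of these 7, Sulf2 passed in each leave-one-out fit, and Adamts4, Mmp12, Mmp19, Timp1, Serpinf1 and Adamtsl2 lost the call in at least 1 (highest adjusted p 0.0541 to 0.148).

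Focal adhesion genes and genes of the actin-linked factors SRF and YAP gave 7 falls and 1 rise. Zyx, zyxin, a LIM protein of focal adhesions, fell from 421 and 374 normalised reads at P0 to 117 and 139 at P2 (log2 change -1.63, SE 0.25, adjusted p = 0.0103). Tgfb1i1, the paxillin relative Hic-5, fell from 304 and 219.9 to 80.2 and 111 (log2 change -1.45, SE 0.27, adjusted p = 0.0235). Itgb1, the shared beta chain of many integrins, fell from 14044 and 11794 to 6979.7 and 7200.4 (log2 change -0.86, SE 0.19, adjusted p = 0.0416). Csrp1, a LIM protein of the actin cytoskeleton, went the other way, from 2238 and 2481 to 7294 and 7256 (log2 change 1.63, SE 0.28, adjusted p = 0.018). Of 42 integrin and focal adhesion genes, 1 rose and 3 fell (2.08% and 2.07% of all features did), with a median of -0.27 (4-library fit 6 and 15, leave-one-out fits 0 to 3 and 0 to 5). Srf, serum response factor itself, fell from 396 and 397 to 167 and 192 (log2 change -1.14, SE 0.20, adjusted p = 0.019). Tead1, the DNA-binding partner of YAP, fell from 3939.9 and 3398 to 1385 and 1256 (log2 change -1.47, SE 0.30, adjusted p = 0.0331). Cyr61, a matricellular YAP target, fell from 1036 and 878 to 319 and 361 (log2 change -1.49, SE 0.20, adjusted p = 0.00629), and Fhl2, a LIM-only SRF target, fell by 0.88 on the log2 scale. These were the 4 falls among 38 YAP, SRF and actin genes, with no rise (4-library fit 4 and 15, leave-one-out fits 0 to 2 and 0 to 8) and a median of -0.31. Dsp, desmoplakin of desmosomes, fell from 1295 and 989 to 363 and 390.03 (log2 change -1.59, SE 0.20, adjusted p = 0.00505), the sole call among 27 cadherin and junction genes (4-library fit 2 and 5, leave-one-out fits 0 and 0 to 2). By single libraries, Zyx, Tgfb1i1, Itgb1, Csrp1, Srf, Tead1, Cyr61, Fhl2 and Dsp lost the call in at least 1 leave-one-out fit (highest adjusted p 0.0769 to 0.345). Itgb1 and Tead1 missed the threshold with the ribosomal RNA features left out (adjusted p = 0.0857 and 0.0695).

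Antioxidant genes, many of them NRF2 targets, gave rises. Hmox1, haem oxygenase 1, rose from 406 and 381 normalised reads at P0 to 1578 and 1413 at P2 (log2 change 1.92, SE 0.30, adjusted p = 0.0109). Nqo1, a quinone reductase, rose from 336 and 401 to 1156 and 1073 (log2 change 1.6, SE 0.28, adjusted p = 0.0187), and Ephx1, an epoxide hydrolase, from 24.4 and 21.6 to 86.4 and 92.8 (log2 change 1.92, SE 0.30, adjusted p = 0.011). Blvrb, biliverdin reductase B, and Gpx1, a glutathione peroxidase that contains selenium, rose from 179 and 184 to 413 and 373 and from 303 and 345 to 1425 and 1405 (adjusted p = 0.0251 and 0.0387). Of 37 tested, 5 rose, none fell and the median was 0.43 (4-library fit 20 and 3, leave-one-out fits 0 to 10 and 0 to 1). Selenop, the secreted selenium carrier, rose from 4058 and 4162 to 18678 and 15413 (log2 change 2.05, SE 0.22, adjusted p = 0.00223), the sole call among 16 selenoproteins (4-library fit 6 and 1, leave-one-out fits 1 to 3 and 0). In iron handling, Tfrc, the transferrin receptor, fell from 1138 and 1102 to 374 and 374 (log2 change -1.58, SE 0.18, adjusted p = 0.0032), and Ncoa4, the receptor for ferritin breakdown, rose from 593 and 588 to 1186 and 1052 (log2 change 0.92, SE 0.20, adjusted p = 0.0427). Slc39a10, a zinc importer, fell from 1956 and 1758 to 444 and 465 (log2 change -2.03, SE 0.34, adjusted p = 0.0149), and the copper pump Atp7b fell by 0.92 on the log2 scale. Fth1, the ferritin heavy chain, named with its values known, did not pass (1.0, adjusted p = 0.064). The iron and metal list counted 1 rise and 3 falls of 25 (4-library fit 9 and 7, leave-one-out fits 0 to 4 and 0 to 5). For these redox and metal genes, Selenop passed in each leave-one-out fit, and Hmox1, Nqo1, Ephx1, Blvrb, Gpx1, Tfrc, Ncoa4, Slc39a10 and Atp7b lost the call in at least 1 (highest adjusted p 0.0565 to 0.328). Without the ribosomal RNA features Atp7b was at an adjusted p = 0.0711.

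Genes of the amino acid response and transport gave falls. Of 37 tested, 5 fell (2.07% of all features did) and none rose (4-library fit 4 and 20, leave-one-out fits 0 to 2 and 0 to 10), with a median of -0.39. Aldh18a1, which starts proline synthesis, fell from 160.3 and 124 normalised reads at P0 to 41.7 and 39.1 at P2 (log2 change -1.78, SE 0.30, adjusted p = 0.0166). Sesn2, a leucine sensor upstream of mTORC1, fell from 438 and 365 to 109 and 124 (log2 change -1.77, SE 0.31, adjusted p = 0.019), and Atf5, a stress-regulated transcription factor, from 246 and 189.7 to 76.02 and 90.5 (log2 change -1.37, SE 0.26, adjusted p = 0.0252). Slc38a2, a transporter of neutral amino acids, fell by 0.87 on the log2 scale, and Stc2 was the fifth. Among 20 aminoacyl-tRNA synthetases, Gars, which charges glycine, fell by 0.72 (4-library fit 2 and 9, leave-one-out fits 0 and 0 to 2), and the median was -0.26. Ern1, the unfolded protein sensor IRE1, fell from 495 and 466 to 160.4 and 191 (log2 change -1.45, SE 0.28, adjusted p = 0.0257), and Ppp1r15b, a regulator of eIF2-alpha phosphorylation, fell by 1.04. They were the 2 falls of 37 endoplasmic reticulum chaperone and stress genes (4-library fit 7 and 7, leave-one-out fits 0 to 1 and 0 to 4), whose median was 0.16. None of 25 cytosolic chaperones passed, with a median of 0.02 (4-library fit 3 and 2, leave-one-out fits 0 to 1 and 0 to 2). Of these falls, Aldh18a1, Sesn2, Atf5, Slc38a2, Stc2, Gars, Ern1 and Ppp1r15b lost the call in at least 1 leave-one-out fit (highest adjusted p 0.181 to 0.35). Slc38a2, Gars, Ern1 and Ppp1r15b were lost with the ribosomal RNA features left out (adjusted p = 0.0813, 0.0932, 0.0559 and 0.0508).

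Calls among genes of energy metabolism were Pdk1, Txnip and Ero1l. Pdk1, the kinase that shuts pyruvate dehydrogenase, fell from 299 and 262 normalised reads at P0 to 152 and 111 at P2 (log2 change -1.1, SE 0.22, adjusted p = 0.0311), and Txnip, a glucose-responsive inhibitor of thioredoxin, rose from 2135 and 2075 to 3467 and 3258 (log2 change 0.67, SE 0.15, adjusted p = 0.0482). They were the 2 calls of 32 glycolysis and pyruvate genes, or 6.25% against 4.15% of all features (4-library fit 3 and 8, leave-one-out fits 0 to 1 and 0 to 3), with a median of -0.20. Ero1l, an oxidase of protein folding induced by low oxygen, fell from 1169 and 897 to 428 and 453 (log2 change -1.22, SE 0.21, adjusted p = 0.0166) and with Pdk1 made the 2 falls of 24 hypoxia-responsive genes, or 8.33% (4-library fit 2 and 10, leave-one-out fits 0 to 1 and 0 to 4). No nuclear gene of the respiratory chain passed of 39, and their median was 0.28 (4-library fit 11 and 2, leave-one-out fits 0 to 2 and 0). The mitochondrially encoded genes were not analysed here. For these 3, Pdk1, Txnip and Ero1l lost the call in at least 1 leave-one-out fit (highest adjusted p 0.191 to 0.354). Without the ribosomal RNA features Pdk1 and Txnip missed the threshold (adjusted p = 0.064 and 0.142).

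Calls among genes of proliferation were mostly regulators of G1. Ccnd1, cyclin D1, rose from 443 and 339 normalised reads at P0 to 1511 and 1688 at P2 (log2 change 2.04, SE 0.27, adjusted p = 0.00619), while Cdk6, the kinase it activates, fell from 2112 and 1989 to 547 and 470.5 (log2 change -2.01, SE 0.24, adjusted p = 0.00366). The list of cyclins and CDK inhibitors held 1 rise and 3 falls of 28 (4-library fit 4 and 8, leave-one-out fits 0 to 3 and 0 to 3). Rb1, the retinoblastoma protein that these kinases phosphorylate, fell from 818 and 743 to 355 and 319.6 (log2 change -1.21, SE 0.28, adjusted p = 0.0485). Btg1, a relative of Btg2, fell from 861 and 622 to 277 and 246 (log2 change -1.48, SE 0.22, adjusted p = 0.00855). Rrm2, the regulated subunit of ribonucleotide reductase, rose from 586 and 615 to 1587 and 1666 (log2 change 1.44, SE 0.25, adjusted p = 0.019), the sole call of 52 replication and nucleotide genes (4-library fit 21 and 2, leave-one-out fits 0 to 4 and 0 to 1). None of 45 mitosis genes passed (4-library fit 19 and 1, leave-one-out fits 0 to 6 and 0 to 1). The medians were 0.23 and 0.23. Among 40 p53 and apoptosis genes, 3 rose and 4 fell (4-library fit 10 and 7, leave-one-out fits 0 to 5 and 0 to 5). Cflar, which blocks death receptor signals, rose from 576 and 543 to 1099.8 and 1061 (log2 change 0.95, SE 0.15, adjusted p = 0.0129), and Bcl2l11, the death-promoting protein Bim, fell from 829 and 829 to 453 and 408 (log2 change -0.95, SE 0.17, adjusted p = 0.0224). Bmf, a death-promoting relative of Bim, rose by 1.46, and Tp53inp1, a p53 target, fell from 469.5 and 510.2 to 194 and 168. Over single-library refits, Ccnd1, Cdk6, Rb1, Btg1, Rrm2, Cflar, Bcl2l11, Bmf and Tp53inp1 lost the call in at least 1 leave-one-out fit (highest adjusted p 0.0652 to 0.327). Rb1 also missed the threshold without the ribosomal RNA features (adjusted p = 0.109).

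The lists of ribosomal, proteasome, autophagy, lysosome and N-glycosylation genes held 4 rises and no fall. None of 71 cytosolic ribosomal protein genes passed, and their median was -0.30 (4-library fit 1 and 21, leave-one-out fits 0 and 0). Near-identical copies make counts of ribosomal protein genes uncertain. None of 48 ribosome biogenesis genes passed (4-library fit 6 and 8, leave-one-out fits 0 to 1 and 0 to 3), with a median near 0. None of 33 proteasome genes passed, with a median of 0.32 (4-library fit 17 and 2, leave-one-out fits 0 to 4 and 0 to 1), and none of 33 autophagy genes (4-library fit 4 and 7, leave-one-out fits 0 to 2 and 0 to 2), with a median of -0.15. Ctsa, a lysosomal carboxypeptidase, rose from 4624 and 4207 normalised reads at P0 to 14573 and 14183 at P2 (log2 change 1.7, SE 0.23, adjusted p = 0.00629), and Man2b1, lysosomal alpha-mannosidase, rose from 861 and 824 to 1749 and 1666 (log2 change 1.02, SE 0.22, adjusted p = 0.0409). They were the 2 calls of 47 lysosomal genes, or 4.26% against 4.15% of all features (4-library fit 13 and 5, leave-one-out fits 0 to 6 and 0 to 1). Of 51 genes of N-glycosylation, Magt1, a subunit of the oligosaccharyltransferase, and St3gal3, a sialyltransferase, rose by 0.81 and 0.71 on the log2 scale, 3.92% of that list (4-library fit 9 and 6, leave-one-out fits 0 to 3 and 0 to 2). The rest of that pathway, which sets the glycans of secreted proteins, did not pass. Of these 4 rises, Ctsa, Man2b1, Magt1 and St3gal3 lost the call in at least 1 leave-one-out fit (highest adjusted p 0.0834 to 0.344). Magt1 and St3gal3 were also lost with the ribosomal RNA features left out (adjusted p = 0.0515 and 0.0872).

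Remaining signalling lists held scattered calls. In TGF-beta and BMP signalling, Bambi, a pseudoreceptor that dampens the pathway, rose from 53.1 and 76.2 normalised reads at P0 to 199 and 211 at P2 (log2 change 1.67, SE 0.32, adjusted p = 0.026). Ltbp1, which stores latent TGF-beta in the matrix, fell from 5280.5 and 4927 to 2606 and 2472 (log2 change -1.01, SE 0.16, adjusted p = 0.0134), and Ski fell by 0.79 and Acvr1 fell by 1.03 on the log2 scale, which made 1 rise and 3 falls of 38 (4-library fit 2 and 9, leave-one-out fits 0 to 1 and 0 to 7). Wnt7b rose from 6.97 and 2.87 to 29.2 and 23.5 (log2 change 2.29, SE 0.42, adjusted p = 0.0221), the sole call of 25 Wnt genes (4-library fit 3 and 7, leave-one-out fits 0 to 1 and 0), and none of 11 Notch genes passed (4-library fit 3 and 2, leave-one-out fits 0 to 2 and 0). Sgk1, a kinase induced by glucocorticoids, serum and osmotic stress, fell from 3237 and 3176 to 1147 and 1087 (log2 change -1.52, SE 0.18, adjusted p = 0.00366) and with Per1 made the 2 falls of 14 glucocorticoid-responsive genes (4-library fit 0 and 5, leave-one-out fits 0 and 0 to 3). Per1 and Nr1d2, repressors of the circadian clock, fell from 103 and 87.7 to 23.95 and 35.8 and from 767 and 726 to 389 and 353, the 2 calls of 17 clock genes (4-library fit 1 and 7, leave-one-out fits 0 and 0 to 3). Rarres2, chemerin, rose from 759 and 889.6 to 2245 and 2076 (log2 change 1.39, SE 0.27, adjusted p = 0.0275), while 1 rose and 1 fell of 9 retinoid and vitamin D genes (4-library fit 1 and 3, leave-one-out fits 0 to 1 and 0 to 2). Of 26 aquaporin and cell volume genes, Atp1b3, a sodium pump subunit, fell by 0.80 and Stk39, a kinase that controls ion cotransporters, fell by 1.08, and the list median was -0.46 (4-library fit 1 and 13, leave-one-out fits 0 and 0 to 6). Sorl1, a sorting receptor, rose from 10.5 and 8.62 to 28.1 and 22.4 (log2 change 1.31, SE 0.30, adjusted p = 0.0471), with Cd36 and Stab2 the 3 rises of 26 endocytosis genes (4-library fit 7 and 6, leave-one-out fits 1 to 3 and 0 to 3). Within these lists, Bambi, Ltbp1, Ski, Acvr1, Wnt7b, Sgk1, Per1, Nr1d2, Rarres2, Atp1b3, Stk39 and Sorl1 lost the call in at least 1 leave-one-out fit (highest adjusted p 0.0656 to 0.352). With the ribosomal RNA features left out, Ski, Acvr1, Atp1b3, Stk39 and Sorl1 missed the threshold (adjusted p = 0.0710 to 0.114).

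The other large falls were spread over several roles. Ccbe1, a secreted factor needed to activate VEGF-C, fell from 384 and 489 normalised reads at P0 to 83.3 and 54.8 at P2 (log2 change -2.66, SE 0.32, adjusted p = 0.00353). Zfhx3, a homeobox transcription factor, fell from 382 and 348 to 91.6 and 90.5 (4.01-fold lower, adjusted p = 0.0106). Heg1, a transmembrane protein of cell junctions, fell from 1173 and 793 to 199.96 and 206 (log2 change -2.24, SE 0.38, adjusted p = 0.0157), and Gpr133, an adhesion-class receptor, fell from 426 and 348 to 76.02 and 71.5 (log2 change -2.37, SE 0.30, adjusted p = 0.00462). Pabpc1, the cytoplasmic poly(A)-binding protein, fell from 1950.3 and 1178 to 375 and 354 (log2 change -2.05, SE 0.31, adjusted p = 0.01). Ubald1 and Cdk1a, as the table names them, fell from 129 and 89.1 to 21.9 and 26.8 and from 279 and 198 to 56.2 and 48.1 (log2 changes -2.1 and -2.16). None of these genes overlapped between P0 and P2, which the naming rule required. Of these 7 falls, Ccbe1, Zfhx3, Heg1, Gpr133, Pabpc1, Ubald1 and Cdk1a lost the call in at least 1 leave-one-out fit (highest adjusted p 0.0541 to 0.186).

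Markers of cell types were set beside these changes. Of 9 epithelial markers in the table, Krt18 and Cldn7 had no read in the 4 libraries, Krt8 was at 3.48 normalised reads or less, and Cdh1 was at 200.3 and 280.3 at P0 and 212 and 240.3 at P2. The epithelial sum went from 233 and 329 to 249 and 289, and no member passed. Vim, vimentin, stood at 14367 and 12373 at P0 and 15451 and 16828 at P2, so reads of these keratins were near absent and reads of vimentin plentiful in both passages. The summed mesenchymal markers went from 38088 and 32918 to 69180 and 68679, of which Col3a1 made up the greater part of the difference. Of 6 tested ovarian markers, Star, which moves cholesterol into mitochondria for steroid synthesis, rose from 220.4 and 206 to 1127 and 991 (log2 change 2.31, SE 0.18, adjusted p = 0.000442). Wt1 was at 74.9 and 77.6 at P0 and 42.7 and 44.7 at P2 and did not pass. Amh, Fshr and Inha stayed at 22.4 normalised reads or less in each of the 4 libraries. Of the 6, 2 had a positive and 4 a negative log2 change, with a list median of -0.49. In the 4-library fit, 1 of them rose and 1 fell. Of 12 leukocyte markers, Itgax, an integrin chain of myeloid cells, had a single read at P0 against 68 reads at P2, 67.6-fold after scaling (11.7 to 2708). Cd14 and Cd3e had no read in the 4 libraries, Ptprc was at 9.58 and 18.7 at P0 and 13.5 and 20.1 at P2, and the leukocyte sum was 67.9 and 74.7 at P0 and 126 and 129.6 at P2. No tested endothelial or smooth muscle marker passed. Among the called markers, Star and Itgax passed in each leave-one-out fit, and Col3a1 and Col1a1 lost the call in at least 1 (highest adjusted p 0.115 to 0.146). A part of other cells in these results was not tested.

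**Figure D5:**
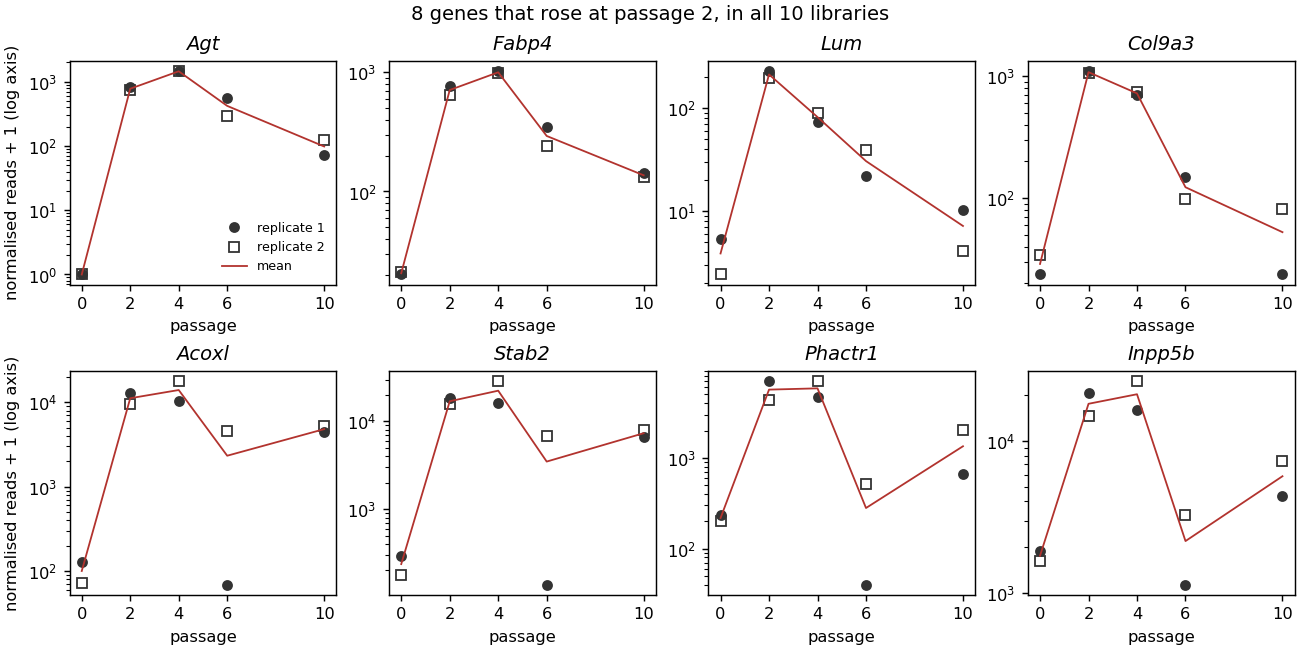
Normalised reads + 1 (log axis) at each of the 5 passages for 8 genes that rose from P0 to P2 (Agt, Fabp4, Lum, Col9a3, Acoxl, Stab2, Phactr1 and Inpp5b), with a filled circle for replicate 1, an open square for replicate 2 and a line through the passage means. P0 and P2 are the passages compared here, and the later points show which libraries set the spread used in the test, with Stab2 at 137 and 6829 in the P6 libraries.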

How the data were processed

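CHO-K1 cells were sampled at passages 0, 2, 4, 6 and 10, each with 2 libraries. TRIzol extraction, a Ribo-Zero step against ribosomal RNA and a stranded TruSeq preparation are stated per the labels' protocols, and a MiSeq by the series' design text. The deposited values are a signal, read counts that the authors normalised with DESeq, per the submitters' processing notes. Version, aligner, counting rule, genome build and annotation were each not given in the sources used here, so genes with near-identical or overlapping copies are uncertain.

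All values in a column were whole multiples of 1 step (tolerance 0.001 reads, 100% of values), which gave back whole reads, as used for depths, floors, ratios and the count-based alternatives. For P4 replicate 1 the step lies near 1, so its reads are less sure. The libraries held 8394219 to 16599495 reads. Of 20050 features named by a gene number, 16386 matched a RefSeq entry of CriGri-PICRH-1.0, used for names alone, since it may not be the authors' build. No sequence is printed because none was given.

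The main test was limma 3.58.1 (R 4.3.3) with a trended prior on log2(value + 1), 1 mean per passage over all 10 libraries (5 residual degrees of freedom), two-sided, with Benjamini-Hochberg adjustment over 13521 features at 0.05. The alternatives were edgeR 4.0.16 and DESeq2 1.42.0 on the recovered reads, other scalings, pseudocounts, filters, library weights, fewer passages, a replicate block and each library left out. Another, without P6 replicate 2 and P10 replicate 1, was chosen after seeing the data. Floors and intervals (95%, exact) cover counting error alone. The steps were tested on simulated data.

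Named genes were the 20 largest rises and 20 largest falls among called features with a symbol, a mean of at least 50 over the 4 libraries and no overlap, up to 6 called members per list with the smallest p, and up to 3 uncalled members with the highest mean. There were 57 lists with 1980 entries, of which 1730 matched. The genes, lists and rule were chosen with earlier results of these data known. Some of the genes that met the rule are not reported here.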

Additional observations from a re-analysis of the deposited data

How the results depend on the processing

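The reported fit gave 281 rises and 280 falls. The numbers changed by more than 1.5 times as follows: 146 falls with the ribosomal RNA features left out (207 rises), 471 rises and 590 falls with DESeq2 (525 features had no adjusted p), 1954 and 2177 with library weights, 1855 and 2085 in the 4-library fit, 2237 and 2378 from P0, P2 and P4, and 2255 and 2361 without P6 replicate 2 and P10 replicate 1. Leaving out 1 library gave 48 to 721 rises and 13 to 857 falls. The fit without the ribosomal RNA features also scaled all libraries to equal totals, so it changes both the features and the scaling. DESeq2 changes the model, and the other fits change the libraries or their weights. The cause of the changed counts was not tested. The replicate block gave 157 rises and 104 falls. Whether shared replicate numbers mark paired libraries was not stated. The deviations of the P0 and P2 replicates correlated at -0.0552, which cannot show whether these libraries were paired. Over 10 pairs of passages the correlation ran from -0.67 (P6 with P10) to 0.225 (P2 with P10), positive in 4. TMM factors, pseudocounts of 0.5 and 5, no filter, a mean of at least 50 and edgeR gave counts within 1.5 times of the main ones (217 to 283 rises, 197 to 289 falls). EdgeR called 502 features. Leaving out a library cannot turn the direction of a gene whose P0 and P2 values do not overlap. Leaving out libraries of other passages leaves the change from P0 to P2 as it was. It was thus largely fixed in advance that none of the 150 named genes changed direction under any of the 23 settings. Of these genes, 28 missed the threshold with ribosomal RNA left out, 47 with the replicate block, 10 with edgeR and 23 with no filter. Besides Acoxl and Stab2, those missing it with edgeR were Elovl7, Acvr1, Itgb1, C3, Txnip, Rb1, Stk39 and Sorl1 (adjusted p = 0.0509 to 0.0708). Depth limits genes with 1 to 3 reads at P0, whose intervals are wide.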

Other observations

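Single genes outside the named lists with few reads at P0 also rose. Clec3b, tetranectin, a plasminogen-binding protein, had 1 read in the P0 libraries together and 61 in the P2 libraries, 60.6-fold after scaling (95% counting interval 10.5 to 2434). Islr had 2 and 69 reads, 34.3-fold (9.14 to 289), and Dusp27 had 3 and 53 reads, 17.6-fold (5.69 to 87.9). Cxcl13, a B-cell chemokine, had 1 and 19 reads, 18.9-fold (3.0 to 785). These genes were picked for their low level at P0.

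The levels reached at P2 were followed into the later libraries as values. Agt was at 1448 and 1452 normalised reads in the P4 libraries, 549 and 289 in those of P6 and 70.04 and 124 in those of P10. Fabp4 was at 1016 and 976 at P4 and 141 and 130.3 at P10, and Lum at 9.28 and 3.12 at P10. Acoxl was at 68.1 and 4593 in the P6 libraries and Stab2 at 137 and 6829. Phactr1 was at 39.1 and 519 and Inpp5b at 1141 and 3259. These later values are given without a test.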
